A study of Mus musculus with 8 samples.

Results

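The genes described here encode 9 known or proposed channels and modulators of touch and mechanical transduction, taken by name from the 55414 Ensembl genes listed in each library of dorsal root ganglia (DRG). They are the channels Piezo1 and Piezo2, the channel family Tmem63a, Tmem63b and Tmem63c, the proposed channels or channel modulators Tmem120a (TACAN) and Tmem150c (tentonin 3), and the membrane proteins Stom (stomatin) and Stoml3 (stomatin-like 3). All 9 were listed, and 8 of them were abundant enough to be tested, the exception being Stoml3.

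Somatosensory neurons turn a deformation of the skin, muscle or viscera into an electrical signal through ion channels that open when the membrane is stretched or indented. Piezo2 is the principal channel of light touch and proprioception in DRG neurons, while Piezo1 is best known from vascular, red blood and connective tissue cells. The TMEM63 proteins are related to the osmosensitive OSCA channels of plants, and stomatin-domain proteins sit in the membrane beside channels and tune how readily they open.

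The ganglia were dissected from mouse embryos at E18.5, and their transcripts were measured by bulk RNA-seq of poly(A) RNA. The 4 AD1 OE libraries came from embryos of the genotype AdvillinCre/+;Rosa26Dach1/+, which express Cre from the Advillin locus and, after Cre has excised a stop cassette, Dach1 from the Rosa26 locus in sensory neurons. The 4 Control libraries came from Advillin+/+;Rosa26Dach1/+ embryos, which carry the same silent Rosa26 allele and no Cre. In the paper, this allele also carries the reporter EGFP behind Dach1. The groups thus differ in the Advillin allele, Cre and EGFP as well as in Dach1. The Rosa26Dach1 line was kept on a mixed background of C57Bl/6J and CD1, and the ganglia hold neurons and glia together. The comparison addressed which transcripts change when Dach1, a transcriptional regulator that is normally restricted to few touch neuron subtypes, is present throughout the sensory neurons.

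The libraries held 22339059 to 44025625 counts assigned to genes. Levels are given as CPM, the count of a gene relative to the total of its library after scaling for composition (counts per mega-count), as mean ± SD over n = 4 libraries per group. Dach1 reached 95.9 ± 5.28 CPM in AD1 OE against 32.6 ± 1.64 CPM in Control, and Avil, the gene that carries Cre, stood at 52.0% of its Control level. Xist and Y-linked transcripts marked 1 female and 3 male libraries in AD1 OE against 3 female and 1 male libraries in Control, so a fit with sex as a term is among the alternatives. Replicates of each group differed by more than counting noise. The labels do not say that each library came from its own embryo, so p-values measure the spread between these libraries.

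The 9 genes spanned a wide range of abundance, which was compared as CPM per kilobase of merged exons, since a longer transcript yields more reads. Piezo2 was the highest, at 72.7 ± 4.63 CPM per kb in Control, above 97.4% of the tested genes. Tmem63b followed at 37.96 ± 1.40 CPM per kb, and its libraries did not overlap with those of Piezo2. Next came Tmem120a at 18.3 ± 1.30, Tmem63c at 17.7 ± 1.16 and Tmem150c at 15.6 ± 0.748 CPM per kb in Control, where neighbours in this order overlapped. With the longest transcript in place of merged exons, Tmem150c moved ahead of both, so the order of these 3 genes rests on the length used. Stom was at 12.7 ± 1.29, Tmem63a at 6.19 ± 0.234 and Piezo1 at 2.38 ± 0.225 CPM per kb. Stoml3 was the lowest, at 0.109 ± 0.0667 CPM per kb in Control and 0.148 ± 0.0273 in AD1 OE. Within the Piezo pair, the genes ranked first and 8th of the 9, with the log2 ratio of Piezo2 to Piezo1 at 4.94 ± 0.160 in Control and 4.91 ± 0.143 in AD1 OE (levels per kb, exact permutation test, two-sided, p = 0.771).

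**Figure D1:**
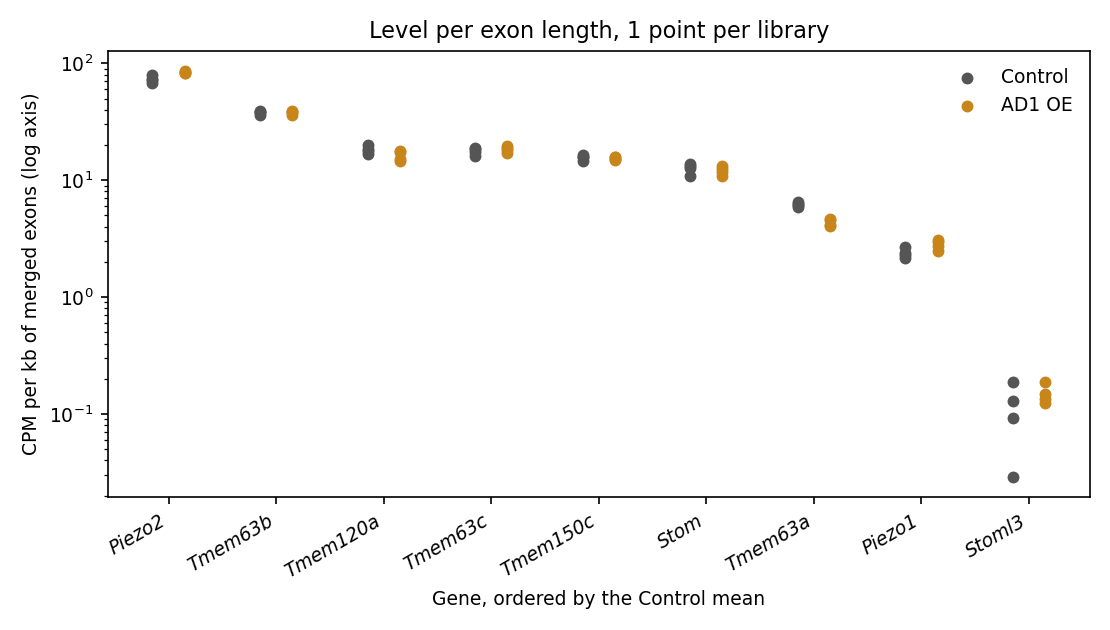
Level of each of the 9 genes in CPM per kb of merged exons (log axis), with 1 point per library, 4 Control and 4 AD1 OE libraries per gene, ordered by the Control mean. Piezo2 lies highest and Stoml3 lowest in both groups, and the points of Tmem120a, Tmem63c and Tmem150c lie close together.

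In the comparison of AD1 OE with Control, 1 of the 8 tested genes was called, Tmem63a, which was lower. A call required, in the edgeR quasi-likelihood test, a log2 fold change beyond 0.25 in size together with an adjusted p (Benjamini-Hochberg) below 0.005, and 2.57% of all 17721 tested genes were called (1.78% lower and 0.784% higher). None of the 8 was called higher, where edgeR gave 2 higher genes at an unadjusted p under 0.05 and neither DESeq2 nor limma-voom called any. When only an adjusted p below 0.05 was required, 2 of the 8 passed, Tmem63a lower and Piezo2 higher, against 6.55% of all tested genes, and an unadjusted p under 0.05 was reached by 4 of the 8 against 18.6%. The AD1 OE and Control libraries did not overlap for the same 2 genes, while such a separation was seen for 13.0% of all tested genes (7.26% with AD1 OE lower and 5.69% with AD1 OE higher). The median log2 fold change of the 8 genes was -0.015, and that of all tested genes was 0.002. In a bulk sample, fewer cells of a type and less RNA per cell cannot be told apart.

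**Figure D2:**
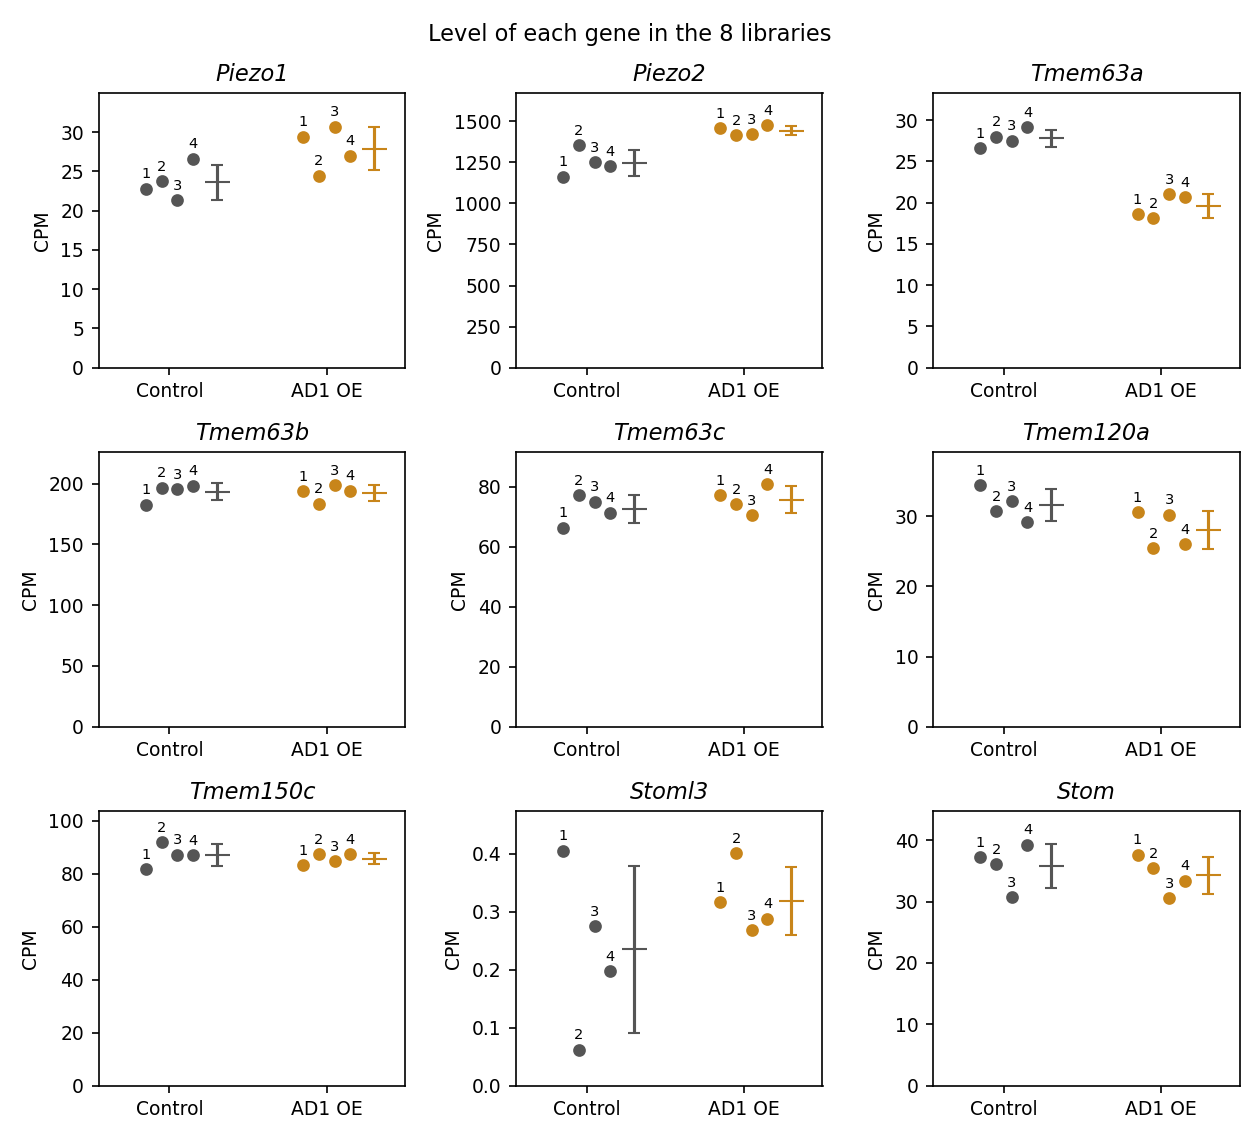
CPM of each of the 9 genes in the 4 Control and 4 AD1 OE libraries, numbered by replicate, with the mean and SD beside the points. The AD1 OE points of Tmem63a all lie below the Control points and those of Piezo2 all lie above them, whereas the groups overlap for the other 7 genes.

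Tmem63a (ENSMUSG00000026519, chromosome 1) encodes a mechanically gated cation channel of the plasma and lysosomal membrane. Its level was 26.6, 28.0, 27.5 and 29.1 CPM in Control replicates 1 to 4 and 18.6, 18.1, 21.04 and 20.7 CPM in AD1 OE replicates 1 to 4. Every AD1 OE library was below every Control library, and the highest AD1 OE library, at 21.04 CPM, was apart from the lowest Control library, at 26.6 CPM. The mean fell by 29.5%, with a log2 fold change of -0.51, a standard error of 0.06 and a 95% confidence interval from -0.64 to -0.37 (edgeR adjusted p = 3.56e-04). The values rest on 406 to 1031 counts per library. The gene was called in each of the 17 alternative fits, where the log2 fold change ran from -0.53 to -0.46 and the adjusted p reached at most 0.00227. Within the sexes, the log2 difference was -0.38 in females (1 AD1 OE library against 3) and -0.61 in males (3 against 1). In the annotation, 3.50% of the exon bases of Tmem63a also belong to a gene on the other strand, 2210411M09Rik, which had at most 7 counts in any library.

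Neither paralogue of Tmem63a was called. Tmem63b (ENSMUSG00000036026), which encodes the member best studied in neurons and hair cells, was at 183, 197, 196 and 199 CPM in Control and 194, 184, 199 and 194 CPM in AD1 OE. The groups overlapped throughout, and the log2 fold change of -0.01 had a 95% confidence interval from -0.09 to 0.08 (edgeR adjusted p = 0.947). Its sign turned with the scaling of the libraries, to 0.01 without composition scaling. Tmem63c (ENSMUSG00000034145), the third member, was at 66.3, 77.2, 75.0 and 71.3 CPM in Control and 77.2, 74.2, 70.5 and 80.8 CPM in AD1 OE, again with overlap. Its log2 fold change was 0.06, with an interval from -0.06 to 0.18 (edgeR adjusted p = 0.608). Both intervals lie apart from that of Tmem63a.

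Expressed as a share of the family (CPM per kb, summed over the 3 genes), Tmem63a made up 10.2, 9.77, 9.74 and 10.3% in Control replicates 1 to 4 and 6.80, 6.92, 7.69 and 7.36% in AD1 OE replicates 1 to 4. The means were 10.01 ± 0.292% and 7.19 ± 0.412%, without overlap (exact permutation test, two-sided, p = 0.0286, the smallest that 4 against 4 libraries can give). The shares come from the same counts as the fold changes above, so this test adds no separate evidence for the change of Tmem63a. Tmem63b made up 61.4 ± 0.637% in Control and 62.3 ± 1.27% in AD1 OE (exact p = 0.257), and Tmem63c made up 28.6 ± 0.917% and 30.5 ± 1.51% (exact p = 0.0857). The 3 shares sum to the whole in each library, so they are not independent of each other. Tmem63b was thus the most abundant family member per length in all 8 libraries, and Tmem63a the least abundant.

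**Figure D3:**
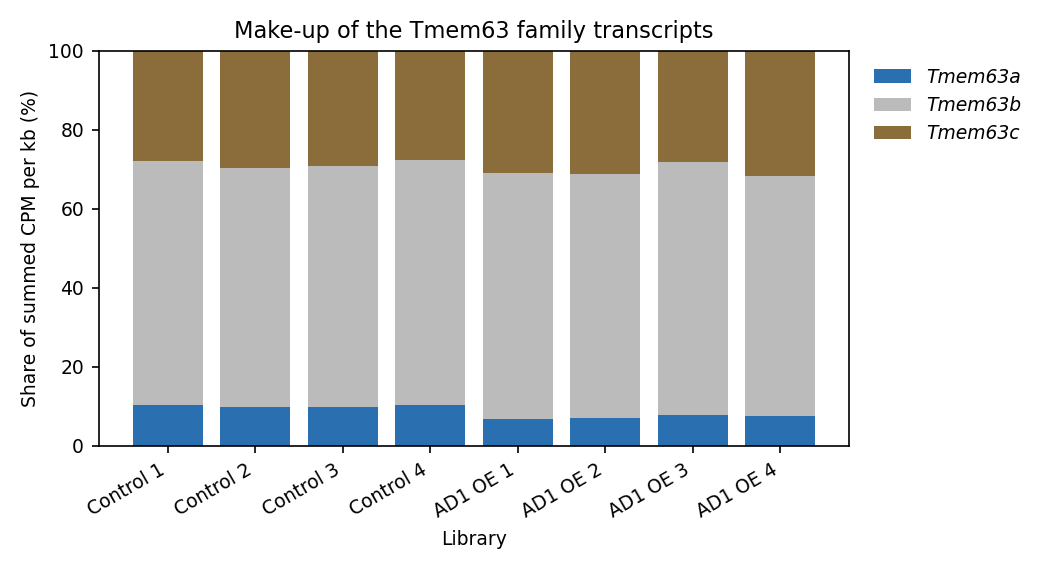
Share of Tmem63a, Tmem63b and Tmem63c in the summed CPM per kb of the family (percent, linear axis from 0), with 1 bar per library. The Tmem63a part is 9.74 to 10.3% in the Control bars and 6.80 to 7.69% in the AD1 OE bars.

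Piezo2 (ENSMUSG00000041482, chromosome 18) was at 1163, 1354, 1251 and 1226 CPM in Control and 1457, 1416, 1423 and 1475 CPM in AD1 OE. All 4 AD1 OE libraries were above all 4 Control libraries, with a gap between Control replicate 2 and AD1 OE replicate 2. The spread was narrower in AD1 OE, where the SD was 1.93% of the mean, than in Control, where it was 6.37%. The mean was 1443 ± 27.9 CPM in AD1 OE against 1248 ± 79.5 CPM in Control, which is a log2 fold change of 0.21 (standard error 0.05) with a 95% confidence interval from 0.09 to 0.32 (edgeR adjusted p = 0.0343). This passed neither the adjusted p nor the fold limit of a call. The direction was the same in all 17 alternative fits (0.18 to 0.26), and the adjusted p ran from 2.75e-04 under DESeq2 to 0.105 without AD1 OE replicate 1. The gene was under an adjusted p of 0.05 in 9 of these fits. With sex as a term the adjusted p was 0.0761, and within the sexes the log2 difference was 0.18 in females and 0.24 in males. Piezo2 is spliced into many isoforms in sensory neurons, which counts per gene do not separate.

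Piezo1 (ENSMUSG00000014444, chromosome 8) was at 22.8, 23.8, 21.3 and 26.6 CPM in Control and 29.4, 24.5, 30.7 and 27.0 CPM in AD1 OE. The groups overlapped, because Control replicate 4 was above AD1 OE replicate 2. The log2 fold change was 0.24, with a 95% confidence interval from 0.06 to 0.42, and was not past the threshold (edgeR adjusted p = 0.135). Over the alternative fits it ranged from 0.20 to 0.31, with adjusted p-values from 0.0398 to 0.305 and no call. The log2 difference was 0.44 in females and 0.01 in males, where the only Control male was the highest Control library, and this contrast between the sexes was not tested. Since Piezo1 is also transcribed outside neurons, the summed levels of markers of other cells are given beside it. The 6 fibroblast markers summed to 5777 to 6542 CPM in AD1 OE against 4947 to 6065 CPM in Control (two-sided exact permutation p = 0.0857), the 6 endothelial markers to 261 to 318 and 278 to 285 CPM (exact p = 0.8), and the 7 erythroid markers to 237 to 812 and 224 to 392 CPM (exact p = 0.514). Of the fibroblast markers, Col1a1, Col1a2, Col3a1 and Pdgfra were at 0.17, 0.19, 0.16 and 0.23 on the log2 scale. Dcn and Lum were at -0.15 and -0.12, and none of the 6 was called. The part of these cells in the Piezo1 level was not tested. In the annotation, Piezo1 shares 24.6% of its exon bases with Ctu2 on the other strand, and since it is not stated whether the counting used the strand, its level is uncertain to that extent. Ctu2 itself averaged 22.5 CPM in AD1 OE against 24.5 CPM in Control (log2 fold change -0.12, edgeR adjusted p = 0.30).

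**Figure D4:**
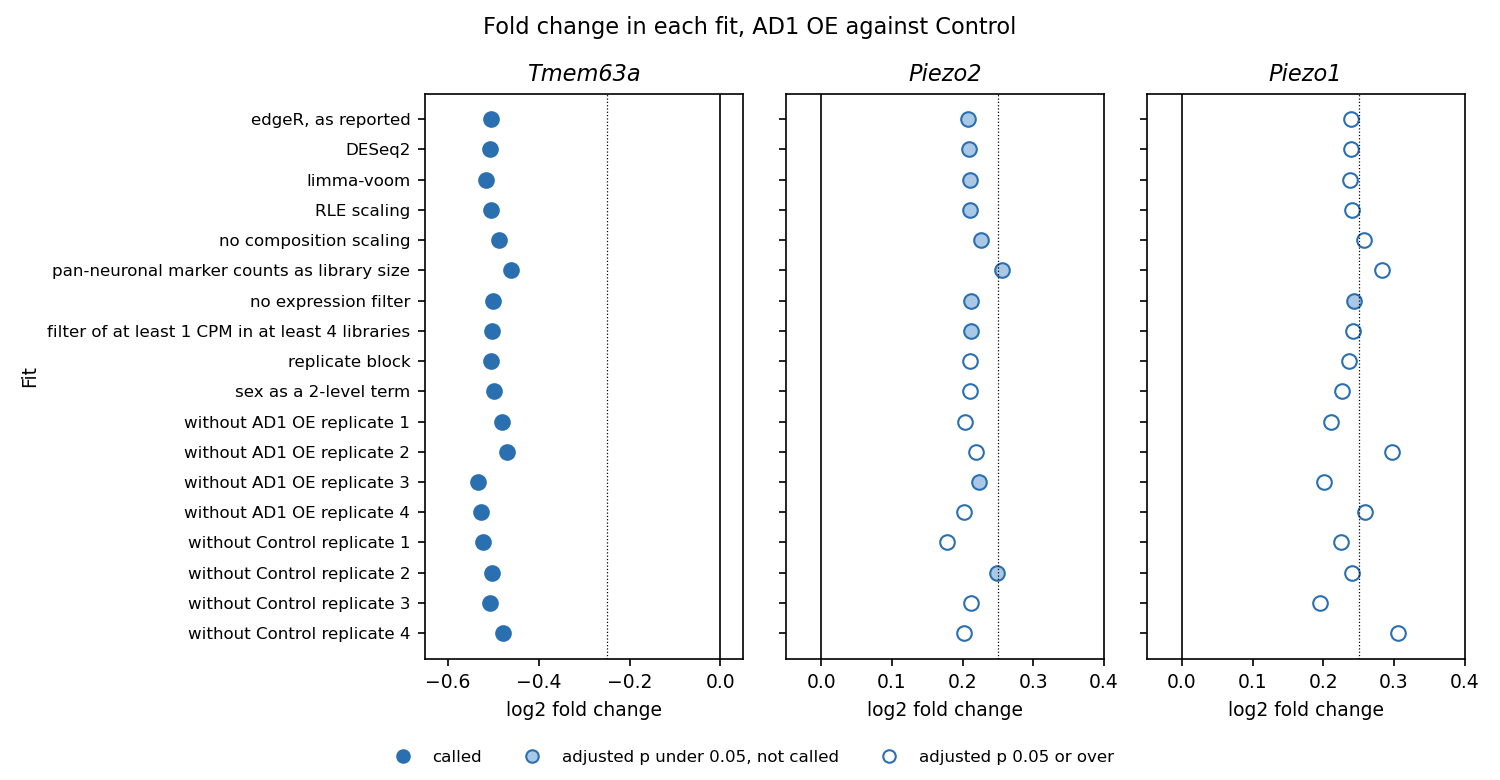
Log2 fold change of Tmem63a, Piezo2 and Piezo1 (AD1 OE against Control) in the reported edgeR fit and in 17 alternative fits, with the fill giving the adjusted p and the dotted line the fold limit of 0.25. Tmem63a is called in every fit, Piezo2 is under an adjusted p of 0.05 in the reported fit and in 9 others, and Piezo1 is so in 1.

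The proposed modulators did not pass the threshold. Tmem120a (ENSMUSG00000039886), proposed as a channel of mechanical pain and as an enzyme-like membrane protein that restrains Piezo2, was at 34.5, 30.8, 32.2 and 29.2 CPM in Control and 30.6, 25.5, 30.3 and 26.01 CPM in AD1 OE. The groups overlapped, and the log2 fold change of -0.17 had a 95% confidence interval from -0.33 to -0.002, with an unadjusted p of 0.0474 and an edgeR adjusted p of 0.261. With sex as a term it was -0.09 (edgeR adjusted p = 0.644). Tmem150c (ENSMUSG00000050640), proposed to slow the inactivation of mechanical currents in muscle afferents, was at 81.7, 91.9, 87.1 and 86.9 CPM in Control and 83.2, 87.3, 84.6 and 87.5 CPM in AD1 OE. Its log2 fold change of -0.02 had an interval from -0.11 to 0.07 (edgeR adjusted p = 0.830), and its sign turned when the libraries were scaled to pan-neuronal transcripts (0.03).

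The stomatin-domain genes differed mainly in level. Stom (ENSMUSG00000026880), which encodes an abundant membrane protein of red blood cells and neurons that dampens acid-sensing channels, was at 37.2, 36.1, 30.7 and 39.3 CPM in Control and 37.7, 35.5, 30.5 and 33.4 CPM in AD1 OE. Its log2 fold change of -0.06 had a 95% confidence interval from -0.24 to 0.11 (edgeR adjusted p = 0.742), and with sex as a term it was -0.16 (edgeR adjusted p = 0.331). Stoml3 (ENSMUSG00000027744), which encodes a protein that sensitizes Piezo channels in touch receptors, had 9, 2, 7 and 7 counts in Control and 14, 9, 7 and 8 counts in AD1 OE. Control replicate 2 was under the floor of 3 counts, and no library exceeded 0.405 CPM. Without the expression filter, the fitted log2 fold change was 0.51 with an edgeR adjusted p of 0.640, so that a difference in Stoml3 was not detectable at this depth.

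The wider set of mechanotransduction genes was a list of 30 written from general knowledge, of which 28 were tested (all but Tmc1 and Tmc2) and 1 was called, Asic3, which was higher. That is 3.57% of the tested genes of the list, beside 2.57% of all tested genes. The median log2 fold change of the list was 0.004, with 15 genes above and 13 below 0. At an adjusted p under 0.05, 3 genes were higher and 3 were lower, together 21.4% of the tested genes of the list beside 6.55% of all tested genes. An unadjusted p under 0.05 was reached by 15 of the 28, beside 18.6% of all tested genes. The groups did not overlap for 6 lower genes (Kcnk10, Asic1, Cib2, Anxa6, Stoml1 and Tmem150a) and 3 higher genes (Kcnk4, Asic2 and Asic3). Among all tested genes, these shares were 7.26% lower and 5.69% higher.

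Asic3 (ENSMUSG00000038276), which encodes a proton-gated channel of sensory neurons that stomatin-domain proteins modulate, was at 92.7, 103, 100 and 113 CPM in Control and 129, 135, 132 and 144 CPM in AD1 OE. Every AD1 OE library was above every Control library, and the log2 fold change of 0.40 had a standard error of 0.06 (edgeR adjusted p = 0.00103). The call was made in each of the 17 alternative fits, with an adjusted p of at most 0.00489. The acid-sensing channels numbered 3 in the list, and the remaining members, named after their values were seen, were not called. Their log2 fold changes were 0.24 for Asic2 and -0.12 for Asic1 (edgeR adjusted p = 0.0217 and 0.169).

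The remaining groups held no called gene, and each is described by its member with the highest CPM. The K2P potassium channels gated by membrane tension (3 genes) ran from -0.21 to 0.29 on the log2 scale, and Kcnk10 was at 40.1 ± 0.889 CPM in AD1 OE against 46.5 ± 2.65 CPM in Control (log2 fold change -0.21, edgeR adjusted p = 0.0229). The other K2P genes, named after their values were seen, lay on the other side of 0, Kcnk4 at 0.20 (edgeR adjusted p = 0.0251, without overlap) and Kcnk2 at 0.29 (edgeR adjusted p = 0.116). Of the hair cell transduction complex, 4 of 6 genes were tested, with log2 fold changes from -0.78 to 0.18. Cib2, which encodes its calcium-binding subunit, was at 16.1 ± 1.04 and 19.5 ± 1.66 CPM (-0.28, edgeR adjusted p = 0.0461), whereas the pore genes Tmc1 and Tmc2 had at most 10 counts in any library. Among the TRP and polycystin channels (6 genes), which ran from -0.56 to 0.13, Pkd1 was at 208 ± 13.2 and 190 ± 14.2 CPM (0.13, edgeR adjusted p = 0.252). The proposed Piezo partners (6 genes) ran from -0.09 to 0.17, and Anxa6 was at 820 ± 14.4 and 871 ± 14.7 CPM (-0.09, edgeR adjusted p = 0.261). Of the other stomatin-domain proteins (3 genes), Stoml1 was at 93.8 ± 0.899 CPM in AD1 OE against 102 ± 3.63 CPM in Control, without overlap (-0.13, edgeR adjusted p = 0.0469). Of the paralogues of Tmem120a and Tmem150c (3 genes), Tmem150a was at 25.8 ± 2.83 and 31.8 ± 3.09 CPM (-0.30, edgeR adjusted p = 0.0663).

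**Figure D5:**
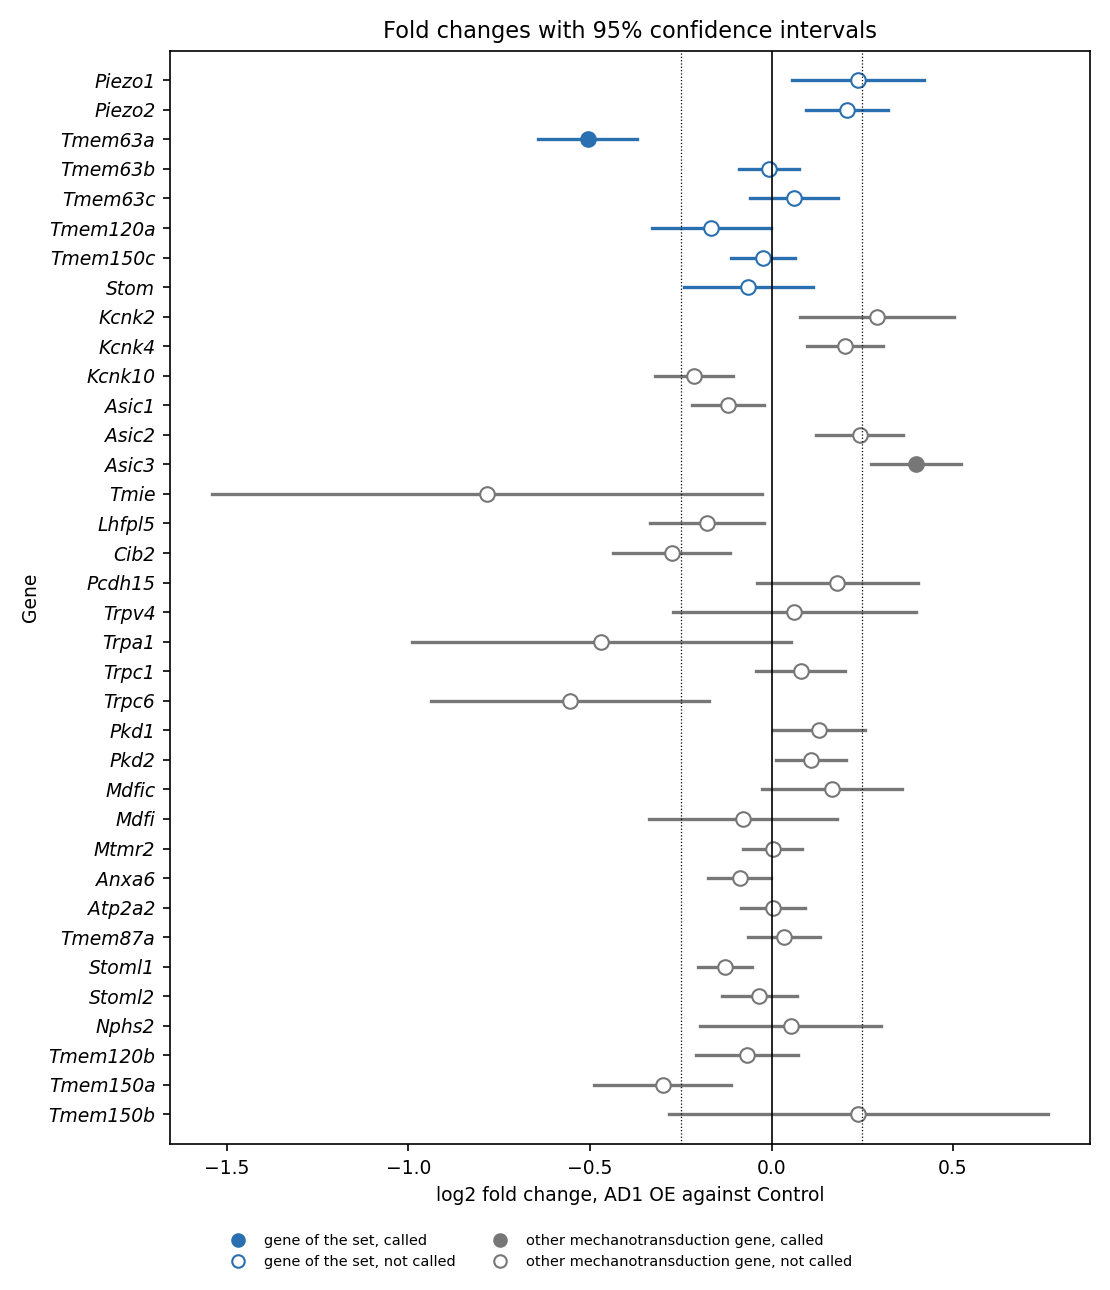
Log2 fold change of AD1 OE against Control with its 95% confidence interval (horizontal line) for the 8 tested genes of the set and 28 other mechanotransduction genes, with filled points for called genes, open points for the others and dotted lines at the fold limits of -0.25 and 0.25. Tmem63a and Asic3 are the filled points.

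Transcripts that mark cell classes were summed per library and set beside the genes above. Such a sum can change with the number of cells or with the marker level per cell, which were not told apart. In the paper, Th, Calca, Mafa, Mrgprd and Scn10a are among the genes misregulated in AD1 OE. The paper also counted neurons stained for Islet1, Prdm12, TrkB and TrkC at E18.5 and found no change in their numbers. All 13 lists had every gene detected in at least 1 library. The pan-neuronal genes (9) summed to 8200 to 8953 CPM in AD1 OE against 8627 to 8957 CPM in Control (two-sided exact permutation p = 0.171), and the glial genes (7) to 1023 to 1287 and 1062 to 1283 CPM (exact p = 0.543). The peptidergic nociceptor markers (5) summed to 1027 to 1120 CPM in AD1 OE against 1317 to 1357 CPM in Control, and the non-peptidergic markers (5) to 1866 to 2105 and 2267 to 2641 CPM, with 3 genes of each list called lower. The non-peptidergic list did not move as a whole. P2rx3 (446 against 399 CPM, log2 fold change 0.16, edgeR adjusted p = 0.0642) and Scn11a (679 against 588 CPM, 0.21, edgeR adjusted p = 0.0858) were above Control in every AD1 OE library. Called lower beside Scn10a were Mrgprd (51.1 against 87.2 CPM, -0.77, edgeR adjusted p = 1.97e-04) and Lpar3 (2.73 against 7.64 CPM, -1.47, edgeR adjusted p = 4.40e-06). The sum is led by Scn10a, at 781 against 1387 CPM, which the paper describes as nociceptor-specific without limiting it to this class. Without Scn10a the other 4 genes summed to 1130 to 1248 CPM in AD1 OE and 984 to 1164 CPM in Control. Both full sums had the smallest exact p that the design can give, 0.0286, and an adjusted p of 0.186 over the 13 lists. The touch and proprioceptive classes, in which Piezo2 is known to act, showed overlapping sums over the full lists. The A-LTMR markers (low-threshold mechanoreceptors with myelinated fibres, 6 genes, 2 called lower) summed to 285 to 320 and 284 to 321 CPM (exact p = 0.771), the C-LTMR markers (5 genes, 1 called higher and 1 lower) to 227 to 231 and 207 to 233 CPM (exact p = 0.486), and the proprioceptor markers (6 genes, 1 called lower) to 519 to 637 and 575 to 637 CPM (exact p = 0.4). These overlaps also rest on the most abundant genes. Ntrk3 encodes TrkC, which the paper uses to label A-LTMR as well as proprioceptors. Without Ntrk3 the proprioceptor markers summed to 218 to 262 CPM in AD1 OE and 318 to 359 CPM in Control. Without Zfp521 the C-LTMR markers summed to 156 to 165 and 132 to 152 CPM. In neither case did the groups overlap (exact permutation p = 0.0286, adjusted p = 0.124 over the 13 lists). Neither list moved as a whole. Of the proprioceptor genes, Etv1 was called lower (92.6 against 181 CPM) and Whrn was at -0.31 on the log2 scale. Ntrk3 was at 0.30, and Pvalb, Runx3 and Heg1 were at -0.08, -0.07 and 0.12. Of the C-LTMR genes, only Th was higher (63.8 against 21.2 CPM). Tafa4, P2ry1, Zfp521 and Slc17a8 were at -0.38, -0.28, -0.23 and -0.15. Without Ntrk2 the A-LTMR markers summed to 86.7 to 102 and 98.1 to 116 CPM (exact p = 0.0571). This list did not move as a whole either. Mafa (3.18 against 9.77 CPM) and Shox2 (6.69 against 12.1 CPM) were called lower, at -1.61 and -0.86. Colq was at 0.60 without overlap (edgeR adjusted p = 0.0124), and Calb2, Ntrk2 and Maf were at 0.24, 0.12 and -0.04. The part of these classes in the Piezo2 level was not tested. Of other tissues, macrophage markers (6) summed to 70.2 to 82.0 and 78.0 to 88.3 CPM (exact p = 0.143), skeletal muscle markers (6) to 89.3 to 550 and 109 to 336 CPM (exact p = 1), and spinal cord markers (6) to 2.15 to 4.55 and 2.24 to 19.1 CPM (exact p = 0.229). The peptidergic sum was lower in AD1 OE, as Tmem63a was, while the non-peptidergic sum was lower only with Scn10a included. Mrgprd and Lpar3 of the non-peptidergic list were lower as well. The part of these 2 nociceptor classes in the change of Tmem63a was not tested.

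Tmem63a was compared with 15517 other tested genes averaging 1 CPM or more, and those whose log2 CPM followed Tmem63a most closely over the 8 libraries were Spink2 (Pearson r = 0.992), Abcd4 (0.992) and Hpcal1 (0.991). The 8 libraries include both groups, so that the difference between the groups is part of these correlations. The 3 genes were themselves lower in AD1 OE, with log2 fold changes of -0.92 for Spink2, -0.47 for Abcd4 and -0.27 for Hpcal1 (edgeR adjusted p = 0.00402, 1.67e-04 and 7.20e-04).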

How the data were processed

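Reads from poly(A) libraries made with a stranded Illumina kit were aligned by the authors to GRCm39 with STAR 2.7.8a and counted per Ensembl gene with featureCounts 2.0.1, and raw counts were deposited per library, neither filtered nor normalized (tool versions per the labels). The strand setting of the counting is not given in the sources used here. Groups came from the titles and genotypes. Symbols, chromosomes, exon lengths and shared exons came from GENCODE M21 (GRCm38), which named 52081 of 55414 IDs, and 1 symbol was updated through RefSeq synonyms.

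Counts were tested in R 4.3.3 with edgeR 4.0.16 (filterByExpr, TMM, quasi-likelihood F test, genotype as the only term, Benjamini-Hochberg adjustment over 17721 genes). The thresholds of a call (adjusted p below 0.005, log2 fold change beyond 0.25 in size) are those of the study for this comparison. Standard errors are the log2 fold change divided by the square root of F. DESeq2 1.42.0, which the study used, limma-voom 3.58.1, other scalings, filters and thresholds, the replicate number as a block, sex, and leaving out each library were alternatives. The tests were checked on simulated counts. Single values were compared by exact permutation over the 70 divisions of the libraries. No molecular identifiers were used, so the floor of 3 counts covers counting error only.

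The members and lists were chosen with earlier results of these data known. The text names the 9 genes, Dach1 and Avil, called genes and the highest gene of each of the 7 groups in the wider list of 30, and the 3 genes most like each called member. Marker genes were named after their values were seen, as were the other acid-sensing and K2P genes. Lists of 13 cell classes were summed, and also without the most abundant gene of each, an alternative chosen after seeing the data. Promoter and protein sequences were not used here. Of the wider list as first written, 1 gene was left out of all its counts and is not reported here.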

Additional observations from a re-analysis of the deposited data

How the results depend on the processing

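Tmem63a was called in all 9 alternative fits on 8 libraries and in all 8 fits without 1 library, as was Asic3, and the number of called members was 1 in each. Requiring an absolute log2 fold change over 1 at an adjusted p under 0.05 ended the call of Tmem63a (-0.51) and left 0 members, 0 genes of the wider list and 129 genes in all. At an adjusted p under 0.05 with no fold limit, 2 members passed, Piezo2 (0.21) being the addition, with 6 genes of the wider list and 1161 in all. Without the expression filter 747 genes were called, and in the fits without 1 library 289 (without AD1 OE replicate 1) to 420. The cause of these shifts in the total was not tested. Scaling to pan-neuronal transcripts changed the split of calls from 316 lower and 139 higher to 229 and 171, with the median of all genes at 0.05 and 2 genes of the wider list called in place of 1. The sign of 2 genes near 0 turned. Tmem63b was at 0.0107 without composition scaling, 0.0386 under pan-neuronal scaling and -0.0304 to 0.0162 without 1 library, and Tmem150c was at 0.0258 under pan-neuronal scaling and -0.0472 to 0.0054 without 1 library. Neither had an adjusted p under 0.6. With the replicate block 348 genes were called, Tmem63a among them (-0.51, adjusted p 0.00120), and Piezo2 had an adjusted p of 0.0791. Same-numbered libraries correlated between -0.05 and 0.31 in their deviations, with 1 of 4 pairs over 0.1. Libraries of unlike number correlated between -0.32 and 0.22. With so few libraries, these values cannot decide whether the numbers pair the libraries. Depth limits what can be said of Stoml3, Tmc1 and Tmc2.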
